A study of Mus musculus with 2 samples.

Results

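Chromatin accessibility was described at 10 genes that answer to glucocorticoid hormone or to cell stress, of 21851 protein-coding genes annotated on the autosomes and the sex chromosomes. They were chosen by symbol from the GENCODE annotation of the mouse and comprise the receptor gene Nr3c1, the hormone targets Fkbp5, Tsc22d3, Sgk1 and Zbtb16, the metallothionein genes Mt1 and Mt2, and the stress genes Ddit4, Cdkn1a and Gadd45a. Open regions, footprints and significant cleavage runs were read within each gene body and 50 kb either side. Mt1 and Mt2 lie side by side and share nearly all of their window, so the 10 genes stand for 9 loci.

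The gastrocnemius, a calf muscle, came from 2 male B6CASTF1/J mice aged 36 days, each given as a separate biological replicate with 1 DNase-seq library. DNase I cuts open chromatin, so peaks of cleavage mark accessible DNA, and short protected stretches within them, called footprints, mark places where a protein may have sat. B6CASTF1/J mice are F1 hybrids of the C57BL/6J and CAST/EiJ strains, and the sequences below are those of the C57BL/6J reference, so an allele of the other parent may differ. The labels name no hormone treatment, stressor or second group, and nothing was compared between conditions.

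Glucocorticoids enter the cell and bind the glucocorticoid receptor, which chaperones of the heat shock protein family hold ready in the cytoplasm. The receptor then moves to the nucleus and binds glucocorticoid response elements, pairs of inverted hexamers set apart by a short spacer, many of them far from promoters. In skeletal muscle the hormone is known for promoting protein breakdown and restraining growth signalling. Metallothionein genes answer to the hormone and also to heavy metals, through metal response elements bound by Mtf1, and Cdkn1a and Gadd45a are known targets of p53.

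The libraries held 50760 peaks in replicate 1 and 49230 in replicate 2 in the shorter of the pair of lists deposited for each, and 83409 and 83736 in the longer. Values are the authors' peak signal, scaled for each library in a way that is not stated, so each peak was also ranked as a percentile, the percentage of the peaks of its own library at or below its value. The values came in whole steps of 0.0123 in replicate 1 and 0.00657 in replicate 2, and the depth in reads is unknown. Of 6 marker genes of muscle fibres, 5 had a promoter peak in both libraries and Myh4 had none in the shorter lists, while none of 3 markers of macrophages and lymphocytes, 2 of adipocytes and 2 of liver had one in either library. All cell types of the tissue contributed nuclei, and a lower value from fewer open nuclei or from fewer cells of a type cannot be told apart.

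All 10 genes had a promoter peak, within 500 bp of a coding start site, in both libraries, as did 54.2% of all protein-coding genes (11849 of 21851). Their promoters ranged from well below the median open promoter, at Mt2 and Tsc22d3, to among the most open of the tissue. The median promoter value of the 10 genes was 8.30 in replicate 1 and 3.80 in replicate 2, beside 5.73 and 3.95 over all promoters open in both. As percentiles, the medians of the 10 genes were 92.3 and 85.1, beside 86.7 and 85.9 for all open promoters. Only Ddit4, Fkbp5, Sgk1 and Gadd45a lay above the median open promoter in both animals. All 10 also had one in both longer lists, as did 59% of all genes. In 8 of the 10 genes the percentile was higher in replicate 1, with Sgk1 and Cdkn1a slightly higher in replicate 2.

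**Figure D1:**
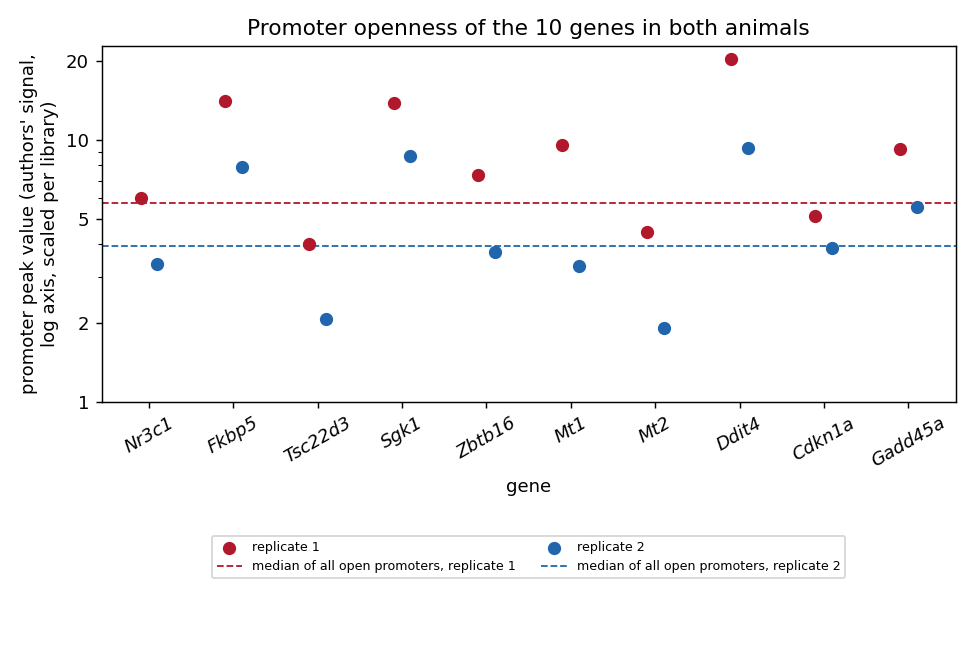
Promoter peak value (authors' signal, log axis) of each of the 10 genes in replicate 1 (red) and replicate 2 (blue), with dashed lines at the median over all promoters open in both libraries (5.73 in replicate 1, 3.95 in replicate 2). Ddit4, Fkbp5 and Sgk1 stand highest in both animals, and Tsc22d3, Mt2 and, by a small margin in replicate 2, Cdkn1a lie below the line of each library.

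The element core searched was GNACA and TGTNC either side of 3 free bases, on both strands, where N is any base. The full palindrome was AGAACA and TGTTCT around the same spacer, and every exact match of it also holds the core. Within the windows of the 10 genes, 178 distinct open regions were found after merging the peaks of both libraries. Of these, 80 were open in both (44.9%), 46 in replicate 1 alone and 52 in replicate 2 alone, beside 51.2% open in both over the genome (32662 of 63849). The core occurred in 8 of the 80 regions open in both (10%), beside 0.821% of all such regions (268 of 32662). Seen from the sequence, 9 of the 44 cores in the windows lay inside a region open in both animals (20.5%), against 271 of 44933 cores over the genome (0.603%). The genes were chosen by name, several of them as known targets of the hormone, so this count is not independent of that choice. No test was made of it. The genome count also takes in cores far from any gene, unlike that of the windows.

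Nr3c1, on the minus strand of chromosome 18, encodes the glucocorticoid receptor itself. It was open at its CpG-rich promoter, a known cluster of alternative first exons, in 4 neighbouring regions. The promoter peak had a value of 6.00 in replicate 1 (percentile 87.6) and 3.34 in replicate 2 (82.2), and the merged region at chr18:39489501-39490860 held 7 footprints of replicate 1 that were met by one of replicate 2. A narrower region at chr18:39491601-39491820, at the start of another transcript of the gene, was higher, with 7.55 in replicate 1 and 6.56 in replicate 2. Away from start sites Nr3c1 had 3 regions open in both libraries. The higher 2 were an intergenic one at chr18:39558441-39558700, 67.9 kb upstream of the nearest start site, with 3.12 and 1.58, and an intronic one at chr18:39460926-39461100 with 2.48 and 1.35. The third, at chr18:39559381-39560360, had 1.79 and 1.28. No glucocorticoid element core lay in an open region of the receptor gene: its window held 2 cores, both outside every peak of both lists.

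**Figure D2:**
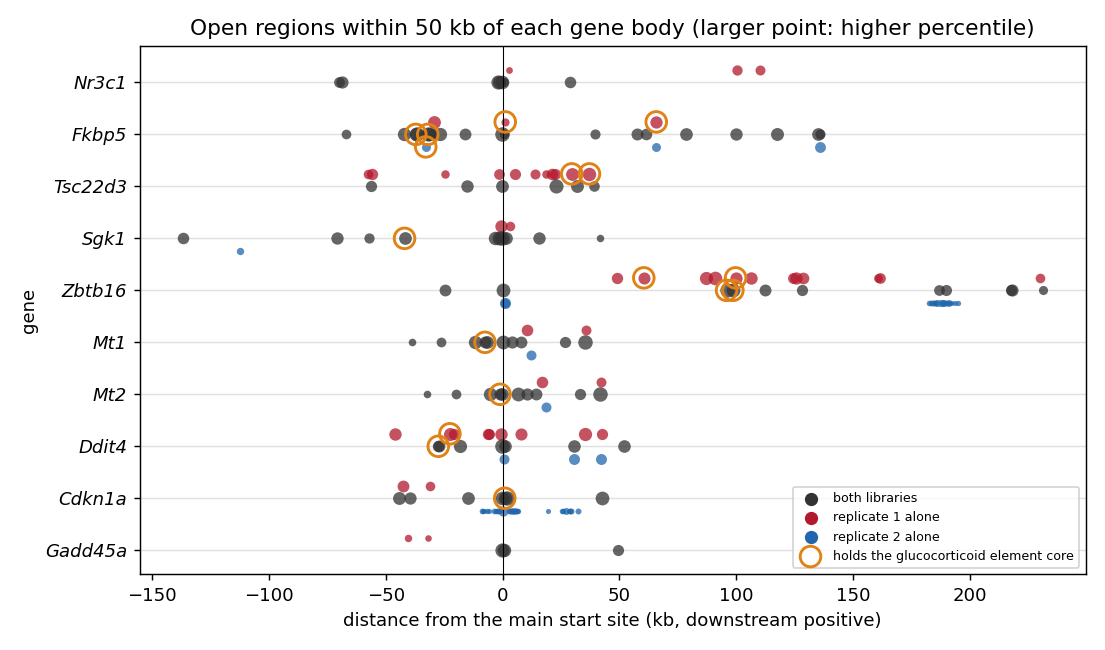
Open regions within 50 kb of each gene body, by distance in kb from the gene's main start site (downstream positive), one row per gene. Grey points mark regions open in both libraries, red points regions of replicate 1 alone and blue points regions of replicate 2 alone, with larger points for higher percentiles; orange rings mark regions that hold the glucocorticoid element core. Rings sit on grey and red points in all but 1 case, and the rows of small blue points lie at Cdkn1a and beyond the end of Zbtb16.

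Fkbp5 encodes a cochaperone that binds the receptor complex and lowers its affinity for the hormone, and its induction by the hormone is a textbook feedback loop. Its main promoter was among the most open of the tissue. The peak at the start site on the minus strand of chromosome 17 had a value of 14.0 in replicate 1 (percentile 98.3) and 7.87 in replicate 2 (97.5), and an upstream promoter 31.5 kb upstream was also open, with 7.20 and 2.65. The window held 14 element cores, of which 5 lay in a peak of the shorter lists and 2 in regions open in both libraries. These 2 lay just upstream of that second promoter and at the start of its non-coding neighbours. They are printed on the gene's strand with the core in capitals, from chr17:28518155-28518217 and chr17:28523153-28523215, because both lay in regions open in both animals.
Fkbp5 GRE 1: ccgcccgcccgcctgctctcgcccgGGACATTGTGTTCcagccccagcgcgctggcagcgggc
Fkbp5 GRE 2: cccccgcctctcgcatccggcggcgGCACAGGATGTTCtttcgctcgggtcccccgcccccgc
The region of the first, 662 bp upstream of a coding start site, had 10.6 in replicate 1 and 4.87 in replicate 2. The region of the second, at the start sites of E230001N04Rik and Gm20109, had 7.80 and 3.03. Fkbp5 also held an exact palindrome, in an intron at chr17:28420296-28420360, printed below with the palindrome in capitals.
Fkbp5 palindrome: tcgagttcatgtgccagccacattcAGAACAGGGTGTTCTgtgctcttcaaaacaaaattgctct
That region had a peak of 2.56 in replicate 1, with the palindrome in a footprint, and no peak in either list of replicate 2. Exact palindromes were rare in open chromatin: 4 of 32662 regions open in both libraries held one, 11 of 16230 regions of replicate 1 alone and 0 of 14957 regions of replicate 2 alone.

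The Fkbp5 window held the most regions open in both libraries among the 10 genes, 19 of 25, and 9 of them lay over 1 kb from every annotated start site. The 3 highest of these by the lower percentile were an intergenic region at chr17:28528061-28528280 with 4.40 in replicate 1 and 3.01 in replicate 2, another beyond the gene's end at chr17:28368561-28368740 with 2.97 and 3.05, and an intronic one at chr17:28407501-28407680 with 3.23 and 2.21. Several further regions differed between the animals. The intronic region at chr17:28512701-28513080 had 7.58 in replicate 1 (percentile 91.2) and 2.06 in replicate 2 (68.4). At chr17:28428601-28428780, at the start of another transcript, the values were 4.80 (83.7) and 1.15 (42.9). Others ranked higher in replicate 2. The region at chr17:28350281-28350700, at the start of Tead3, had 1.12 (24.3) and 1.73 (62.0). The distal region at chr17:28553161-28553312 had 1.04 (19.8) and 1.51 (56.1). These regions were named after their values were seen.
Upstream of the main start site, the 200 bases at chr17:28486150-28486349 are printed with the bases that lay in footprints of both libraries in capitals.
Fkbp5 upstream: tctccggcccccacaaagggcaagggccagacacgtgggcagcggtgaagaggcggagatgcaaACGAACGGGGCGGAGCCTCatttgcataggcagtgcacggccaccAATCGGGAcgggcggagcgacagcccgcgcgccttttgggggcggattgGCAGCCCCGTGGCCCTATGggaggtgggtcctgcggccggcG
An Sp1 core, GGGCGG, lay in a footprint of both libraries 127 bp upstream of the start. No glucocorticoid element core lay in these bases.

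Tsc22d3 encodes GILZ, a leucine zipper protein that carries much of the hormone's anti-inflammatory action, and lies on the X chromosome, of which males have 1 copy. Its promoter was modest, and in the shorter lists its window held more peaks in replicate 1 than in replicate 2. In the longer lists the counts were closer, with 24 peaks in replicate 1 and 18 in replicate 2. The promoter peak had a value of 4.02 in replicate 1 (percentile 80.0) and 2.07 in replicate 2 (68.5), below the median open promoter in both. Of 17 open regions, 6 were found in both libraries, 11 in replicate 1 alone and 0 in replicate 2 alone. Of those 11, 4 were met by a peak in the longer list of replicate 2. The 3 highest distal regions in both were the intergenic one at chrX:140520261-140520500, 22.8 kb downstream of the start, with 7.87 in replicate 1 and 5.10 in replicate 2, an intronic one at chrX:140558241-140558440 with 2.74 and 2.08, and an intergenic one at chrX:140511107-140511350 with 4.57 and 2.05. The window held 3 element cores, all downstream of the gene. One lay in no peak of either list of either library, and the other 2 lay in regions of replicate 1 alone and are printed on the gene's strand from chrX:140505941-140506003 and chrX:140513530-140513592.
Tsc22d3 GRE 1: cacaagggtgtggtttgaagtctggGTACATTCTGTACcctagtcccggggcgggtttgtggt
Tsc22d3 GRE 2: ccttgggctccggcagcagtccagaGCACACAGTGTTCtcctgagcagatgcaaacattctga
The first region had 4.56 in replicate 1, and 0.887 in the longer list of replicate 2. The second had 3.22 and 1.08. The second core differed from the full palindrome at 1 letter and overlapped a footprint of replicate 2, though not of replicate 1.

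Sgk1 encodes a kinase, induced by glucocorticoids and by aldosterone, that acts on ion channels and on Foxo factors. Its main promoter on the plus strand of chromosome 10 had 13.9 in replicate 1 (percentile 98.3) and 8.69 in replicate 2 (98.4). It was slightly below that of Fkbp5 in replicate 1 and above it in replicate 2. A pair of regions stood just upstream of it, with 7.51 and 4.02 at chr10:21993081-21993300 and with 4.76 and 3.36 at chr10:21991341-21991560. Between the first of these and the promoter lay an exact palindrome, 182 bp upstream of an alternative coding start site, printed from chr10:21993677-21993739 with its core in capitals.
Sgk1 promoter core: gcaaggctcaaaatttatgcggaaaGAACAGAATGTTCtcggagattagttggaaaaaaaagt
No peak of either list of either library covered it, and it lay in no footprint. Of the 32851 promoter windows of the RefSeq table, 3 held an exact palindrome, this one among them. The only core of the Sgk1 window within an open region lay far upstream, in an intron of a longer transcript, and is printed from chr10:21952667-21952729.
Sgk1 GRE 1: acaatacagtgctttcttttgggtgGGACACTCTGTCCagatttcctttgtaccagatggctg
That region was the highest of 6 distal regions open in both, with 4.48 in replicate 1 (percentile 82.3) and 1.83 in replicate 2 (64.0). The next 2 were the intronic region at chr10:21923521-21923900 with 3.05 and 1.79 and the intergenic one at chr10:22010221-22010420 with 2.10 and 2.84. The 200 bases upstream of the main start site, chr10:21994466-21994665, held 4 stretches in footprints of both libraries, in capitals here.
Sgk1 upstream: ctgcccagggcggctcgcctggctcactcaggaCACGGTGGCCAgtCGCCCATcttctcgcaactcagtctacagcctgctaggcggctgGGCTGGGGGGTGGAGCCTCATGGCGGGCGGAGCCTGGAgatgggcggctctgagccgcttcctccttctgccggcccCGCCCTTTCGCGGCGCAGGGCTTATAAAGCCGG
GGGCGG cores lay in footprints of both libraries at 83 and 31 bp upstream of the start.

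Zbtb16 encodes PLZF, a zinc finger repressor strongly induced by glucocorticoids in many tissues. Its promoter on the minus strand of chromosome 9 had 7.37 in replicate 1 (percentile 90.7) and 3.73 in replicate 2 (84.7), and its largest distal signals lay within its introns. The intronic regions at chr9:48740261-48740440 and chr9:48737521-48737800 both exceeded the promoter in replicate 1. The first had 11.2 in replicate 1 (percentile 96.3) and 7.04 in replicate 2 (96.2), and the second 11.2 (96.3) and 3.17 (80.9). The third, the intergenic region at chr9:48618181-48618540, had 2.32 and 2.05. Both intronic regions carried element cores, printed on the gene's strand from chr9:48737577-48737639 and chr9:48740239-48740310, where the second run of capitals is a pair of overlapping cores.
Zbtb16 GRE 1: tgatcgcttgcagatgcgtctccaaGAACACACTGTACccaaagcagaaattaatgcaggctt
Zbtb16 GRE 2: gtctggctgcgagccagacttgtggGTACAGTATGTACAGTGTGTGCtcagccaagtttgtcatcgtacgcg
None of these cores overlapped a footprint of either library. Of the 8 cores in the Zbtb16 window, 3 lay in regions open in both libraries and 2 more in regions of replicate 1 alone, with values of 2.52 and 2.37 and no peak in either list of replicate 2. The 12 regions of replicate 1 alone included one at chr9:48745121-48745300 with 5.31 in replicate 1 and 1.39 in the longer list of replicate 2. Replicate 2 alone had 17 regions, and 15 of them were weak, between 0.118 and 0.598. These 15 lay within 12.3 kb just beyond the 3′ end of the gene.

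Mt1 and Mt2 encode metallothioneins, small cysteine-rich proteins that bind zinc and other metals. Of the 10 genes they differed most between the animals in the log2 ratio of promoter values and in percentile. The Mt1 promoter had 9.58 in replicate 1 (percentile 94.4) and 3.29 in replicate 2 (81.8), and the Mt2 promoter had 4.44 (82.1) and 1.91 (65.5). On a log2 scale the ratio of replicate 1 to replicate 2 was 1.54 at Mt1 and 1.22 at Mt2. Over all open promoters the median of this ratio was 0.56, with 95% of promoters between -0.49 and 1.30. The ratio of Mt1 lay above that of 99.6% of all open promoters and that of Mt2 above 95.9%. The Mt2 peak was 220 bp wide in replicate 1 and 620 bp in replicate 2. Significant cleavage runs covered more of both gene bodies in replicate 2, with 33.6% against 20.9% at Mt1 and 80.9% against 24.5% at Mt2. Over the genome they covered 1.10% in replicate 2 and 0.83% in replicate 1. With 1 library from each animal, a difference between animals and one between libraries cannot be told apart.

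The metal response element core was searched as TGCGCNC and as TGCACNC on both strands. Such short letters are common: 19.7% of all regions open in both libraries held the first and 13.7% the second, beside 27.5% and 20% of the 80 regions of the 10 genes. The promoter peak of Mt1 in replicate 1 held 5 cores and that of Mt2 held 4, each printed with 10 bases either side, on the plus strand of chromosome 8, with the core in capitals in whichever orientation it has.
Mt1 MRE 1: ggtcccgctgTGCACACtggcgctcca
Mt1 MRE 2: cagggagctcTGCACTCcgcccgaaaa
Mt1 MRE 3: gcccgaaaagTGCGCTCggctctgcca
Mt1 MRE 4: accgcctgctGGGTGCAaaccctttgc
Mt1 MRE 5: gcaaacccttTGCGCCCggactcgtcc
Mt2 MRE 1: aattcgggtcGTGCGCAggcccagggg
Mt2 MRE 2: gaaaaagggcGTGTGCAggcggcgggg
Mt2 MRE 3: cggcgggggcGCGTGCAtggtgccttc
Mt2 MRE 4: gcggagctttTGCGCTCgacccaatac
They begin at chr8:94179056-94179082 and end at chr8:94179177-94179203 for Mt1, and run between chr8:94172612-94172638 and chr8:94172719-94172745 for Mt2. At Mt1 the first and the third core overlapped a footprint of replicate 1 and the fifth one of replicate 2. At Mt2 the second core overlapped a footprint in both libraries.

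Upstream of the metallothionein pair, a region at chr8:94171301-94171874 held an element core 1122 bp before the Mt2 start site, within the body of the annotated gene Gm45774. It is printed from chr8:94171511-94171573, since glucocorticoid elements upstream of mouse Mt2 are known to serve both genes.
Mt2 GRE 1: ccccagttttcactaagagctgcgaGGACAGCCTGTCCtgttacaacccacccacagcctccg
The region had 3.12 in replicate 1 (percentile 73.6) and 1.39 in replicate 2 (52.4), and the core overlapped a footprint of replicate 2 alone. A second core, 81 bp upstream of the Mt1 start site, was touched by the edge of the promoter peak of replicate 2 but lay in no footprint. The 3 highest distal regions of the locus were chr8:94167361-94167539 with 3.12 in replicate 1 and 4.57 in replicate 2, chr8:94186681-94186920 with 2.22 and 1.79, and chr8:94205861-94206020 with 1.81 and 1.55, all intergenic. The neighbouring Nup93 promoter, a housekeeping start site in the same window, had 12.7 and 7.59, and its percentiles were 97.5 and 97.1. Regions at the start sites of Mt3 and Gm39228, also in the window, ranked lower in replicate 2. Their percentiles were 46.9 and 30.5 at Mt3 and 73.2 and 58.2 at Gm39228.

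Ddit4 encodes REDD1, an inhibitor of mTORC1 signalling induced by glucocorticoids, low oxygen and other stress. It had the most open promoter of the 10 genes, with 20.3 in replicate 1, rank 75 among the 11849 open promoters, and 9.31 in replicate 2, rank 532. On the log2 scale the ratio of replicate 1 to replicate 2 was 1.13, above that of 93.2% of open promoters. The bases upstream of the start site, chr10:59951835-59952034 on the minus strand of chromosome 10, are printed with the footprint bases of both libraries in capitals.
Ddit4 upstream: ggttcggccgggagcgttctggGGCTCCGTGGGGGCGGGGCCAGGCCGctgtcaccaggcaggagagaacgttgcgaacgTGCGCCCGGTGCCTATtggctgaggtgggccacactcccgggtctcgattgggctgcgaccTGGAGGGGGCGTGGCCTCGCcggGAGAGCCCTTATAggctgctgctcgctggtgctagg
The first capital stretch holds a GGGCGG core 166 bp upstream of the start. Of the 19 open regions in the window, 7 were found in both libraries, 9 in replicate 1 alone and 3 in replicate 2 alone. The 3 highest distal ones were all intergenic: chr10:59969781-59970200, 18.2 kb upstream, with 5.20 in replicate 1 and 2.33 in replicate 2, chr10:59899594-59899880 with 3.96 and 1.80, and chr10:59921201-59921660 with 4.03 and 1.73.
Upstream of Ddit4 lay an exact palindrome and, farther out, a further core, printed on the gene's strand from chr10:59974248-59974312 and chr10:59979330-59979392.
Ddit4 palindrome: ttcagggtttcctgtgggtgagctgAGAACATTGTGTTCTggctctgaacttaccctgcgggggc
Ddit4 GRE 1: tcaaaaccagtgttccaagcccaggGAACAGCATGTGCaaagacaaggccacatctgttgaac
The palindrome, 22446 bp upstream of the start, had a peak of 3.46 in replicate 1, where it overlapped a footprint, and 1.30 in the longer list of replicate 2. The region of the other core was open in both libraries, with 2.39 and 1.29, but the core itself lay under the peak of replicate 1 alone in the shorter lists.

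Cdkn1a encodes p21, an inhibitor of cyclin-dependent kinases, and is a leading target of p53. Its promoter values were close to the median open promoter, with 5.14 in replicate 1 (percentile 84.9) and 3.88 in replicate 2 (85.5). The highest region of its window was not the promoter but an intronic one 1.76 kb downstream of the main start, chr17:29095361-29095700, with 9.53 and 6.09 (percentiles 94.3 and 94.1). Between them, the region at chr17:29094341-29095080, at the start of AC167363.2, had 7.09 and 2.48 and held an element core. This core is printed from chr17:29094675-29094737, the bases upstream of the main start from chr17:29093569-29093768 with footprint bases of both libraries in capitals, and 2 p53 decamer pairs in capitals from chr17:29090903-29090972 and chr17:29079014-29079083.
Cdkn1a GRE 1: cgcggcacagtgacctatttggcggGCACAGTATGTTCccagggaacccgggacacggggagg
Cdkn1a upstream: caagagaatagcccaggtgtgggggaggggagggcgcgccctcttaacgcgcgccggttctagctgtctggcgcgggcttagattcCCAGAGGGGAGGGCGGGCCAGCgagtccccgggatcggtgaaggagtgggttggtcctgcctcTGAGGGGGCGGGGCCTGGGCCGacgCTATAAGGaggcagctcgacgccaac
Cdkn1a p53 pair: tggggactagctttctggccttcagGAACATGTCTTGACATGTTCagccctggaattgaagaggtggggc
Trp53cor1 start site: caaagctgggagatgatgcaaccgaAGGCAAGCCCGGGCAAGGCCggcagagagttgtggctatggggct
The pair named for Cdkn1a, 41 bp upstream of its alternative start site, matched the p53 consensus with 1 mismatch. It had no peak in replicate 1 and a weak one of 0.217 in replicate 2 (percentile 5.81), and overlapped no footprint. The pair at the start of Trp53cor1, a p53-induced non-coding RNA, also had 1 mismatch and lay in a region with 4.20 and 1.89, where it overlapped a footprint of replicate 1. Up to 2 mismatches were allowed, and 0.811% of all regions open in both libraries held such a pair. The 1 distal region open in both was intergenic, at chr17:29049241-29049400, with 2.54 in replicate 1 and 3.56 in replicate 2.

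The surroundings of Cdkn1a differed in replicate 2 in another way. The window held 9 peaks in replicate 1 and 35 in replicate 2. Of the 27 regions of replicate 2 alone, 26 had values between 0.145 and 0.526, at or below percentile 14.7 of that library. They spread over 41.0 kb, from 8.65 kb upstream to 32.1 kb downstream of the main start, and 12 lay in the gene body. None of the 27 was met by a peak in the longer list of replicate 1. Cleavage runs with a q-value under 0.05 covered 81.1% of the gene body in replicate 2, against 17.8% in replicate 1. An excess of 26 or more peaks in replicate 2 was reached around 104 of 21851 genes (0.476%), and the median difference over all genes was 0. The promoter and the intronic region kept nearly equal percentiles in both animals, while the region between them that held the element core did not, with percentiles of 90.1 in replicate 1 and 74.2 in replicate 2. The weak regions lay on either side of this group and none between the promoter and the intronic region.

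**Figure D3:**
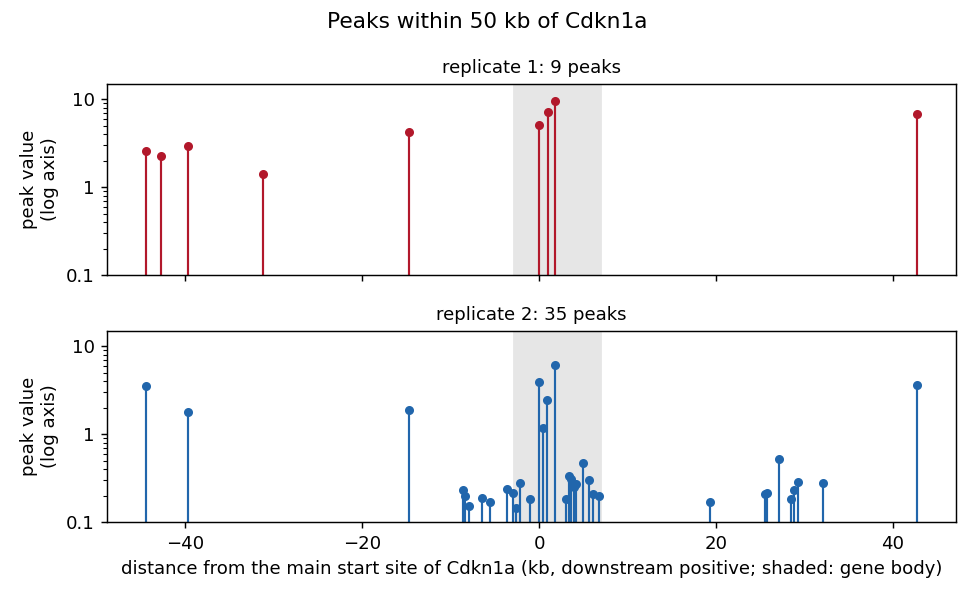
Peaks of the shorter list of replicate 1 (top, 9 peaks) and replicate 2 (bottom, 35 peaks) within 50 kb of Cdkn1a, by distance from its main start site in kb; each stem is 1 peak, its height the authors' signal on a log axis, and the gene body is shaded. Most tall peaks recur in both panels, and 27 low peaks between 0.145 and 0.526, which make up the 26 weak regions, appear in replicate 2 alone.

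Gadd45a encodes a small protein that slows the cell cycle after DNA damage and takes part in muscle atrophy. It had the sparsest window of the 10 genes. The promoter on the minus strand of chromosome 6 had 9.23 in replicate 1 (percentile 93.9) and 5.57 in replicate 2 (92.6), and a second promoter region at chr6:67036501-67036860 had 4.15 and 3.48. Of 5 open regions, 3 were found in both libraries. The single distal one, at chr6:66987701-66987900 within Gng12, had 2.17 and 1.27. None of the 3 element cores in the window lay in a peak of either list.

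Most distal regions open in both libraries near the 10 genes ranked higher in replicate 1, though not at every gene. Of 42 such regions, 31 had the higher percentile in replicate 1 (73.8%), beside 47.8% of the 15864 distal regions of the genome. The median difference, replicate 1 minus replicate 2, was 10.6 percentile points for the 42 regions and -0.81 for the genome, where 95% of regions lay between -32.9 and 30.6 points. The median percentile of the 42 regions was 69.1 in replicate 1 and 57.7 in replicate 2, beside 53.3 and 52.0 for the genome. Of the 42 regions, 37 lay within that range, and the 42 come from 9 loci and so are not independent of each other. All of those at Nr3c1 (3), Tsc22d3 (4), Ddit4 (5) and Gadd45a (1) ranked higher in replicate 1, as did 8 of 9 at Zbtb16, 6 of 9 at Fkbp5 and 4 of 6 at Sgk1. At the metallothionein pair all 4 ranked higher in replicate 2, with differences between -15.4 and -1.93 points, and so did the 1 at Cdkn1a, at -16.9 points.

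**Figure D4:**
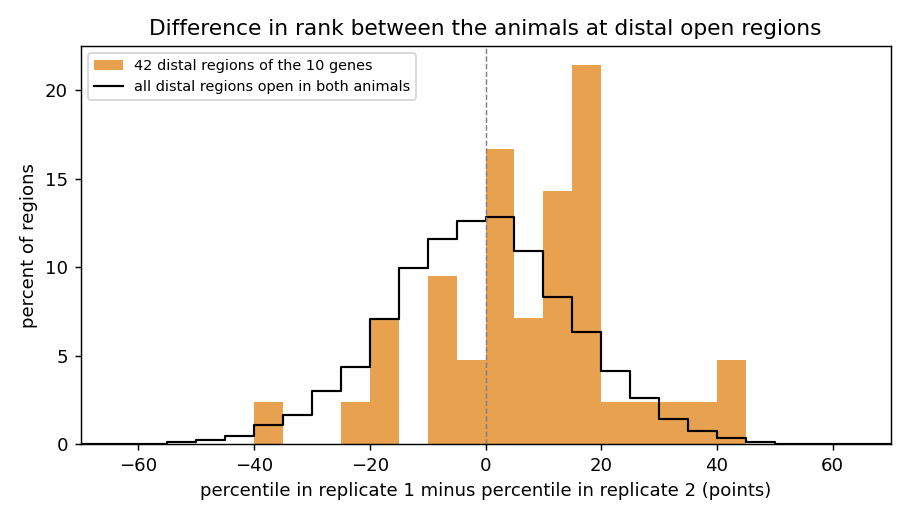
Difference in percentile, replicate 1 minus replicate 2, at distal regions open in both libraries: bars give the percentage of the 42 regions of the 10 genes in bins of 5 points, the black line the percentage of all 15864 distal regions. The bars lie mainly to the right of 0 (31 of 42), while the line is centred near 0.

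Regions with the element core shared this lean, also away from these genes. All 8 regions of the 10 genes that held the core and were open in both libraries ranked higher in replicate 1, by 15.5 points at the median, with the smallest difference of 0.0047 points at Zbtb16. Among the 260 core regions outside the windows, 197 ranked higher in replicate 1 (75.8%), with a median of 10.1 points, beside 47.9% and -0.44 points for all 32662 regions open in both. Regions of a single library showed the same side. The core occurred in 7 of 46 regions of replicate 1 alone near the 10 genes (15.2%) and in 1 of 52 of replicate 2 alone (1.92%). These sets were unlike in strength: 44 of the 46 had a value of 1 or more in their own library, against 7 of the 52. The 52 include the 26 weak regions at Cdkn1a and the 15 beyond the end of Zbtb16. The core region of replicate 2 alone was met by a peak in the longer list of replicate 1, and some of the 7 by one of replicate 2. Over the genome the core occurred in 293 of 16230 regions of replicate 1 alone (1.81%) and 48 of 14957 of replicate 2 alone (0.321%).

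**Figure D5:**
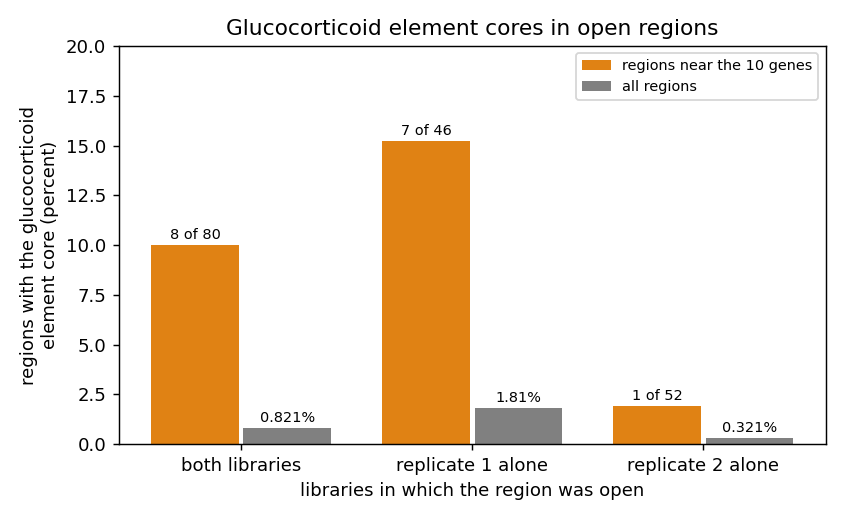
Percentage of open regions that hold the glucocorticoid element core, for regions open in both libraries, in replicate 1 alone and in replicate 2 alone; orange bars are regions near the 10 genes (counts above the bars), grey bars all regions of the genome. In both colours the share is higher in replicate 1 alone than in replicate 2 alone. Near the 10 genes, most regions of replicate 2 alone were the weak ones at Cdkn1a and beyond the end of Zbtb16.

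The median width was 143 bp for regions of replicate 1 alone and 153 bp for those of replicate 2 alone. In windows of 200 bp centred on the regions, the core was in 2.16% of regions of replicate 1 alone and 0.381% of those of replicate 2 alone. Other motifs also occurred more often in replicate 1 alone: AP-1 as TGANTCA occurred in 12.2% of regions of replicate 1 alone against 5.26% of those of replicate 2 alone, the muscle E-box CAGCTG in 23.5% against 17.0%, and the CCAAT box, CCAAT, in 22.4% against 19.2%. The other 2 motifs counted this way were more frequent in replicate 2 alone, with GGGCGG in 13.5% of regions of replicate 1 alone against 14.5%, and the CTCF core, CCNNC and GGNGG around 1 free base, in 6.08% against 7.36%. The libraries also differed in the step of their values, and the part of depth, animal or handling in these differences was not tested.

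Footprints were counted by position, since their deposited score is 0.01 throughout. The windows held 452 in replicate 1 and 577 in replicate 2. Of those of replicate 1, 213 were met by one of replicate 2 (47.1%, beside 52.2% over the genome), and of those of replicate 2, 203 were met by one of replicate 1 (35.2%, beside 33.1%). Cdkn1a and the metallothionein pair had the highest shares for replicate 1, with 61.9% and 62.9%, and Zbtb16 the lowest, with 36.1%. None of the glucocorticoid element cores in the windows overlapped a footprint in both libraries.

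Significant cleavage runs of both libraries covered 42135 distinct bases of the windows. The shared bases came to between 18.7 per kb at Gadd45a and 51.0 per kb at Ddit4, beside 6.29 per kb over the genome. The genome figure takes in bases far from any gene, and no figure for windows of other genes is given here. Mt2 and Ddit4, with short gene bodies, were covered more in replicate 2, with 80.9% at Mt2 and 62.9% at Ddit4, against 24.5% and 28.5% in replicate 1.

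Genes that act with or beside these 10 were read from 5 lists of 73 genes, of which 64 had a promoter peak in both libraries (87.7%, beside 54.2% of all protein-coding genes). Of 13 genes of the receptor machinery, 12 had one. The chaperone genes Hspa8 and Hsp90ab1 and the coactivator gene Ncoa2 ranked highest by the lower percentile, with 19.1, 14.5 and 16.6 in replicate 1 and 10.6, 8.67 and 8.71 in replicate 2. Hsd11b2, whose enzyme inactivates the hormone in kidney, had no promoter peak in the shorter lists, while Hsd11b1, whose enzyme regenerates it, had 4.83 and 4.02.

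Of 25 other glucocorticoid targets, 20 had a promoter peak in both. The phosphatase gene Dusp1, the clock gene Per1 and the NF-kB inhibitor gene Nfkbia ranked highest, with 14.2, 14.6 and 11.0 in replicate 1 and 8.32, 7.79 and 6.91 in replicate 2. Lcn2 and Mstn were among the 4 with none in either library, and these include Tat and Pck1, textbook targets of the hormone in liver. Irs2, an insulin receptor substrate chosen after its values were seen, had 12.4 in replicate 1 (percentile 97.3) and 1.80 in replicate 2 (63.5).

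All 14 genes of the p53 list, which holds Trp53 itself beside 13 targets, had a promoter peak in both, led by Trp53inp1 (18.9 and 8.44), Aen (13.6 and 8.25) and Sesn2 (12.3 and 7.33). Of 12 genes of the integrated stress response, 10 had one. Its transcription factors Ddit3, Atf4 and Atf3 ranked highest, with 21.6, 12.7 and 13.7 in replicate 1 and 9.56, 9.00 and 7.60 in replicate 2, and the hormone genes Fgf21 and Gdf15 had none. Of 9 genes of the metal and oxidant response, 8 had one. The oxidant-response factor gene Nfe2l2, the zinc exporter gene Slc30a1 and Mtf1 led, with 19.0, 14.6 and 11.2 in replicate 1 and 8.85, 8.51 and 5.57 in replicate 2, and Mt4, a metallothionein of epithelia, had none.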

How the data were processed

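DNase-seq libraries of the gastrocnemius of 2 mice, 1 group, were analysed. Per the deposited file listing, peaks, footprints and the table of false discovery rates were made from the filtered alignments of each library on mm10, without pooling; the aligner is not given in the sources used here, nor are the callers. The deposited peak lists carry a signal value, the table a q-value (false discovery rate) per run of bases, below 0.05, and the footprint lists a score of 0.01 on every line, so footprints were used by position.

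The shorter peak list of each library was the main one. Peaks of both libraries were merged, and a region open in both held a peak of each, overlapping by at least 1 bp or joined through others. Annotation was GENCODE release 21 for the mouse on GRCm38, with start sites from protein-coding transcripts. A promoter peak lay within 500 bp of a coding start site, the highest counted, and the main start site was the one nearest to it in replicate 1. A distal region lay over 1 kb from all 132629 annotated start sites. A motif or core overlapped a footprint if they shared 1 base or more. Ddit3 has a pair of overlapping gene records, and the longer was used. RefSeq's table of promoter windows, from 250 bases before to 50 after each start on GRCm38.p6, matched Fkbp5, Tsc22d3, Sgk1, Mt1, Mt2, Ddit4, Cdkn1a and Gadd45a in 16 windows; printed sequences were read from the RefSeq GRCm38.p6 genome.

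In each window the promoter peak and up to 3 distal regions open in both libraries were named, ranked by the lower of the 2 percentiles; in each other list, up to 3 genes with the highest promoters and up to 2 without one, in alphabetical order. Members, lists and tests were chosen with earlier results of these data known. No test was run: 1 group of 2 animals gives no comparison of conditions, so values are set beside those of all genes or regions. Alternatives were the longer lists, a promoter reach of 1000 bp, all transcripts, a 10 kb window, reciprocal overlap of 50%, peaks at or above the median, stricter q-values, looser palindromes and each library alone. Python 3.11.15, numpy 2.4.6, pysam 0.24.0 and matplotlib 3.10.9 were used, and the overlap and motif steps were tested on simulated data. The depth in reads is unknown, so no counting error can be given.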

Additional observations from a re-analysis of the deposited data

How the results depend on the processing

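The count of 10 genes with a promoter peak in both libraries held under each of the 6 alternatives run, and that of the other pathway genes, 64, ranged from 62 to 66. The 80 regions open in both libraries became 120 in the longer lists and 48 within 10 kb of the gene bodies. A reciprocal overlap of 50% gave 59, and peaks at or above the median gave 57. The count was 73 without the Cdkn1a window, an alternative chosen after seeing the data, which raised the share open in both to 51.4%. Each library alone had 129 to 132 regions. The 213 shared footprints fell to 138 with a reciprocal overlap of 50% and to 131 within 10 kb; each library alone had 452 to 577. The 42135 bases in runs of both libraries fell to 25374 at a q-value of 0.001 and to 27270 within 10 kb; each library alone had 57531 to 80011. The 8 regions with the element core became 4 for the palindrome with up to 2 mismatches, 18 with up to 3, and 13 in the longer lists; in the whole genome 1.37% and 9.59% of regions open in both held those looser palindromes. All 10 promoter percentiles were higher in the longer lists, by 0.26 to 10.6 points, and a reach of 1000 bp changed those of Nr3c1 and Cdkn1a, by up to 8.34 points. No paired analysis was possible because the study has 1 group. Values of the libraries are scaled separately and reads are not counted in the files, so ratios between the animals were read only against those of all promoters, and weak regions of 1 library cannot be told from a limit of depth in the other.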
